A study of Homo sapiens with 10 samples.

Results

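The genes described here encode the machinery that holds RNA polymerase II near the start of genes and lets it go. They were chosen by name: HEXIM1, the kinase gene CDK9 with its cyclin genes CCNT1 and CCNT2, the 4 NELF subunit genes NELFA, NELFB, NELFCD and NELFE, and SUPT5H. All 9 were found among the 63187 genes of the deposited count table, and all 9 passed the filter on low counts. RNA-seq libraries came from U2OS, an osteosarcoma cell line of human origin, with 2 libraries in each of 3 groups. The groups were control cells that were not heated, control cells after heat shock, and cells that were heated while YTHDC1 was knocked down, a protein of the nucleus that binds the modified base m6A in RNA. No unheated knockdown group was among them, so a knockdown effect present without heating cannot be told apart from one that needs heat. Every group shared the parental line and received a knockdown reagent, control or targeting. The sample titles name these reagents shCtrl and shYTHDC1, whereas the count columns and the design text name them siCtrl and siDC1 or siYTHDC1, and the characteristics call the control cells WT. The sources used here give neither the temperature nor the length of the heating. They also do not say whether replicate libraries were separate cultures, so the p-values measure only the spread between these libraries, which may be technical. The study asked how m6A and YTHDC1 bear on end-joining repair genes in the heat shock response; the polymerase factors were not its stated subject.

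RNA polymerase II often stops shortly after it starts a gene, held by DSIF, a dimer that contains the SUPT5H protein, and by NELF, a complex of the NELF subunits. P-TEFb, the kinase CDK9 joined to a cyclin T, phosphorylates DSIF, NELF and the polymerase tail, after which NELF leaves and elongation goes on. HEXIM1, bound to the small nuclear RNA called 7SK, keeps part of the cell's P-TEFb inactive. The induction of heat shock genes is a textbook case of pause release, since polymerase waits at the HSP70 promoter before heating and P-TEFb is brought there by heating.

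Depth was alike across libraries, at 13252370 to 15500743 counts. YTHDC1, the targeted gene, stood at 213 and 225 CPM (counts divided by library size, which TMM scaling had adjusted) in unheated controls, 268 and 258 CPM in heated controls, and 121 and 118 CPM in the knockdown, so both knockdown libraries were below all 4 control libraries. HSPA1A, an HSP70 gene whose near-identical copy makes its reads uncertain, ran from 49.5 to 52.5 CPM before heating and from 4479 to 5403 CPM in the 4 heated libraries. Of 6 mesenchymal markers 5 passed the filter, summing to between 4079 and 4531 CPM in every library, and TWIST1 had no count in any. In the knockdown, relative to heated controls, all 5 were called, VIM and SPARC lower (log2 fold changes -0.47 and -0.51) and RUNX2, COL1A1 and CDH2 higher (0.63, 0.42 and 0.88). The 4 epithelial markers summed to 12.5 to 12.7 CPM in unheated controls, 9.82 to 11.1 CPM in heated controls and 36.3 to 38.3 CPM in the knockdown. Of 3 blood markers, CD3E and HBB had no count in any library and PTPRC had 1 to 10 counts per library. The blood list summed to at most 0.696 CPM. The 2 endothelial markers summed to 1.14 to 1.67 CPM in the controls and 0 to 0.0704 CPM in the knockdown. The blood and endothelial lists were at trace levels, and the part of the epithelial and mesenchymal marker shifts in the knockdown results below was not tested. In bulk RNA, fewer cells with a transcript and less of it per cell cannot be told apart.

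The promoter windows of 4 of these genes are shown because they lead the results: HEXIM1 had the largest fall with heat, CCNT2 the largest rise with heat, NELFB the largest rise with the knockdown and NELFE the largest fall with the knockdown. Each runs from 250 bases before to 50 bases after the RefSeq start site on GRCh38.p14, 5′ to 3′ on the gene's strand. Capitals mark motifs found on either strand. The GC box was searched as GGGCGG. The CCAAT box was searched by the letters of its name, and the TATA box by the letters TATAAA. A pair of heat shock element units, which HSF1 binds when more of them adjoin, was searched as GAANNTTC (head to head) and as TTCNNGAA (tail to tail); overlapping matches are all counted.
HEXIM1, chr17:45148225-45148524, plus strand: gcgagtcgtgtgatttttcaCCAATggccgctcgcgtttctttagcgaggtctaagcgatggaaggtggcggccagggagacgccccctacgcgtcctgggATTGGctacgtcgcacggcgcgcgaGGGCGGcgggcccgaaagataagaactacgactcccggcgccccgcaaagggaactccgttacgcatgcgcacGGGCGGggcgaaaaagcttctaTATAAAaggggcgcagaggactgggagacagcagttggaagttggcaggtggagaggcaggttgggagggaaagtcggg
CCNT2, chr2:134918572-134918871, plus strand: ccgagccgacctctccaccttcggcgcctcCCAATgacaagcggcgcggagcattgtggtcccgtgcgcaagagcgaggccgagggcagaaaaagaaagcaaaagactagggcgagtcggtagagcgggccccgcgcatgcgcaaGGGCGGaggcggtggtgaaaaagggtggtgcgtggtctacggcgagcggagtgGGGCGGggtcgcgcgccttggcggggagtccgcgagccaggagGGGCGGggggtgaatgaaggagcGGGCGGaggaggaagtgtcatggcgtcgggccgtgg
NELFB, chr9:137255077-137255376, plus strand: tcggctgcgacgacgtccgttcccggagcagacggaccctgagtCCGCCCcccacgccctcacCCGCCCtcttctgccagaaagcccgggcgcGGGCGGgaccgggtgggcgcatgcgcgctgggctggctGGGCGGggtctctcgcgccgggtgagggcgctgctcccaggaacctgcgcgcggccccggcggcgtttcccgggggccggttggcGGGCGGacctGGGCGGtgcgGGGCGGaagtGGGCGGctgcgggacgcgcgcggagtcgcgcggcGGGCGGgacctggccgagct
NELFE, chr6:31958922-31959221, minus strand: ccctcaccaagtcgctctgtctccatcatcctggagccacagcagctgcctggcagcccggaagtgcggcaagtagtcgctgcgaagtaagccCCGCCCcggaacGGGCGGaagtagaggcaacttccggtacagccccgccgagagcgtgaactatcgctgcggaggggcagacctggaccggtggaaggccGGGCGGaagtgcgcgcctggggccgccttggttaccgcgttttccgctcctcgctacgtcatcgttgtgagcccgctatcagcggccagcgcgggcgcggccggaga

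HEXIM1 was the only member with a TATA box in its window, starting 29 bases before the start site; 11.5% of 35116 RefSeq windows of the same length hold this motif. Its window also had 2 GC boxes and 2 CCAAT boxes. Whatever the number of matches, 45% of windows held a GC box and 34.6% a CCAAT box. The NELFB window held 9 GC boxes, 4 of them starting within the last 34 bases before the start site. Of its bases 79.3% were G or C, against a median of 58.7% over all windows. Every member window but 1 of CCNT1 (31.3%) was above that median, and that of CDK9 was the richest at 82%. CCNT2 had 4 GC boxes and 1 CCAAT box, and NELFE 3 GC boxes. Of the 11 windows listed for the 9 genes, the NELFA window and 1 CCNT1 window each held 1 tail-to-tail pair of heat shock element units. Another CCNT1 window held none, and 7.74% of all windows hold this motif. The HSPA1A window held 1 head-to-head pair, which is in 6.77% of all windows and was not found in those of the 9 genes, and a TATA box. These are letter matches and not measured binding sites, and a motif missing here may lie elsewhere.

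In heated controls HEXIM1 and CDK9 fell, while both cyclin T genes rose. Rises and falls here and below are relative to the rest of each library. A change in total RNA per cell would not show in them. Of the 9 members 5 were lower, 3 were higher and only NELFE did not pass the test at an adjusted p of 0.05 (edgeR quasi-likelihood test, Benjamini-Hochberg adjustment over 17290 genes, as for every adjusted p below with no other name). Over all genes tested, 43.9% were called in this comparison, 20.6% higher and 23.3% lower. With library size alone as the scaling, that split over all genes was 2932 higher and 5092 lower, instead of 3559 and 4033. The median log2 fold change of the members was -0.23, against -0.03 over all genes. The 2 heated libraries lay wholly apart from the 2 unheated ones for all 9 members, as they did for 72.2% of all genes.

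**Figure D1:**
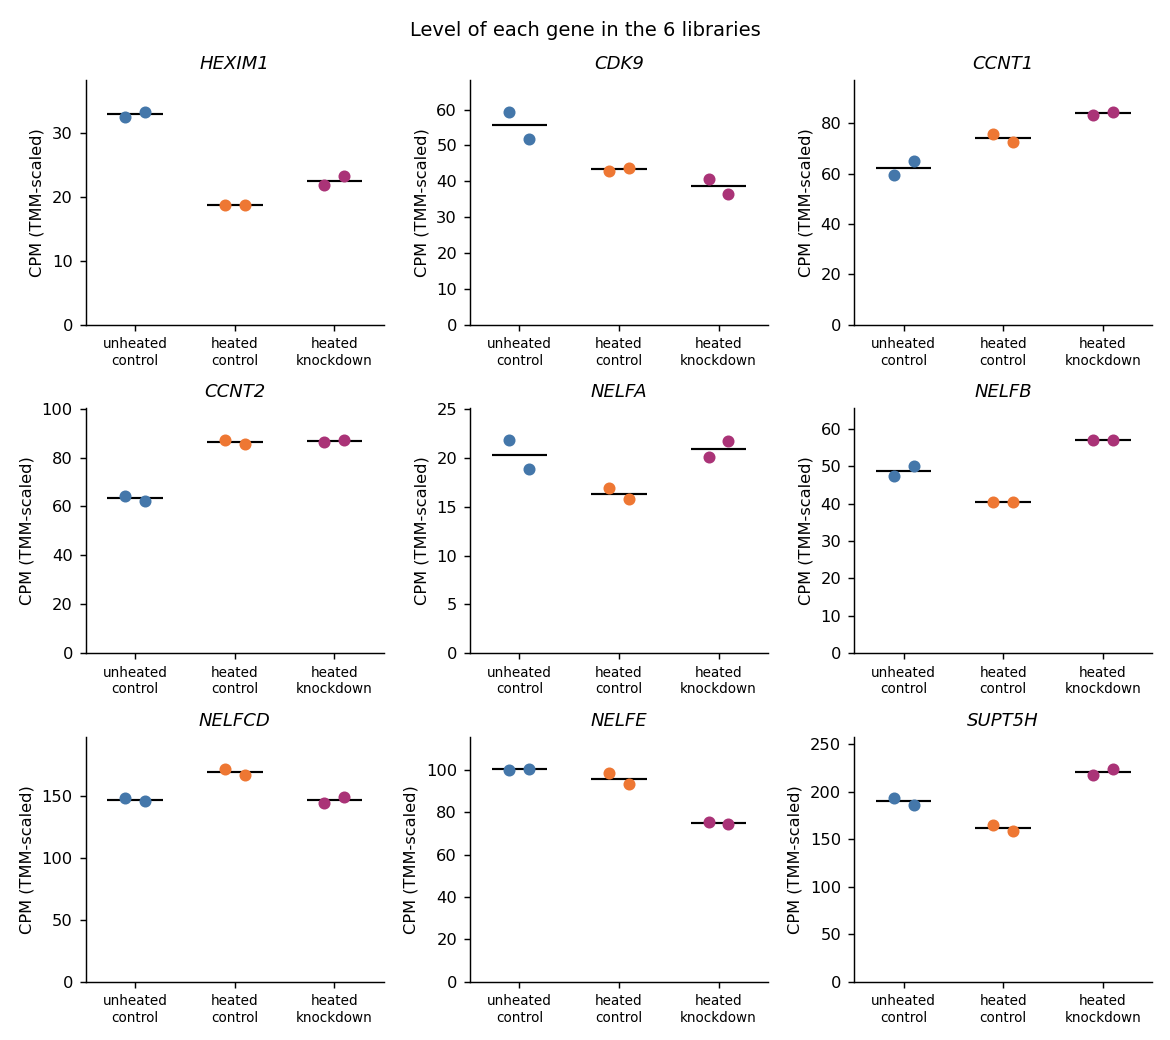
CPM of each of the 9 genes (vertical axes, from 0) in the 2 libraries of each group (points) with the group mean (bar). HEXIM1 drops from a mean of 32.9 CPM to 18.7 CPM with heat, CCNT2 rises from 63.3 to 86.4 CPM, and NELFB and SUPT5H are highest in the heated knockdown.

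HEXIM1 (ENSG00000186834, chromosome 17, 45148475 to 45152099 on GRCh38, plus strand), the inhibitor of P-TEFb, had the largest change. In the deposited table its length of 3625 bases is covered by 1 uninterrupted interval, unlike that of the other 8 genes. It stood at 32.5 and 33.3 CPM without heating, 18.8 and 18.7 CPM in the heated controls, and 21.9 and 23.2 CPM in the heated knockdown cells. The groups did not overlap, and both knockdown libraries lay between the control groups. Heat left 56.9% of the unheated level (edgeR adjusted p = 3.78e-08, log2 fold change -0.81 with an SE of 0.09, n = 2 in each group; SEs follow the ± sign below), and 6.73% of tested genes had a log2 fold change as low or lower. In the knockdown HEXIM1 was higher than in heated controls (log2 fold change 0.27 ± 0.09, edgeR adjusted p = 0.0172). That call was lost without heated control replicate 1 (adjusted p = 0.0638), heated control replicate 2 (0.0813) or knockdown replicate 2 (0.0961), and with the DESeq2 Wald test (0.122), in a range of 0.0129 to 0.122 over the 13 alternatives tried. Against unheated controls the heated knockdown remained lower (log2 fold change -0.55 ± 0.08, edgeR adjusted p = 4.12e-06). HEXIM2-AS1, an antisense gene that overlaps HEXIM1, had 0 to 12 counts per library against 244 to 519 for HEXIM1; the sources used here do not give the strand setting of the counting.

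CDK9 (ENSG00000136807, chromosome 9, 127786034 to 127790792), the kinase of P-TEFb, was at 59.4 and 51.9 CPM without heating, 42.9 and 43.8 CPM in the heated controls, and 40.7 and 36.5 CPM in the heated knockdown cells. The unheated libraries were the highest and differed most from each other. CDK9 fell with heat to 77.9% of the unheated level (log2 fold change -0.36 ± 0.07, edgeR adjusted p = 3.15e-04). The knockdown libraries were lower again, but the difference from heated controls did not pass the test (log2 fold change -0.17, 95% interval -0.33 to -0.00427, edgeR adjusted p = 0.0769). It passed without knockdown replicate 1 (log2 fold change -0.25, adjusted p = 0.013), the lowest in a range that reached 0.405 over the alternatives. Against unheated controls the heated knockdown was lower (log2 fold change -0.53 ± 0.07, edgeR adjusted p = 1.46e-06).

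CCNT1 and CCNT2 encode the cyclins T1 and T2, alternative partners of CDK9. CCNT1 (ENSG00000129315, chromosome 12, 48688458 to 48716707, minus strand) was at 59.4 and 64.9 CPM without heating, 75.6 and 72.5 CPM in the heated controls, and 83.4 and 84.6 CPM in the heated knockdown cells. No library of a group reached into the next group, so the order was unheated, heated, heated knockdown. CCNT1 rose with heat (log2 fold change 0.25 ± 0.06, edgeR adjusted p = 0.00132), and was higher again in the knockdown (0.18 ± 0.06, adjusted p = 0.0105). The heat call was lost without unheated replicate 1 (adjusted p = 0.0654, in a range of 4.64e-05 to 0.0654). The knockdown call was lost without heated control replicate 2 (adjusted p = 0.115) and with the DESeq2 Wald test (0.0902), in a range of 0.00691 to 0.115.

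CCNT2 (ENSG00000082258, chromosome 2, 134918822 to 134959342) was at 64.2 and 62.4 CPM without heating, 87.1 and 85.6 CPM in the heated controls, and 86.5 and 87.1 CPM in the heated knockdown cells. All 4 heated libraries lay between 85.6 and 87.1 CPM, above both unheated ones. CCNT2 rose with heat to 136% of the unheated level (log2 fold change 0.45 ± 0.06, edgeR adjusted p = 3.87e-07), the largest rise among the members. Knockdown and heated control differed by a log2 fold change of 0.0074, with a 95% interval of -0.10 to 0.12 (edgeR adjusted p = 0.919). Against unheated controls CCNT1 and CCNT2 were higher in the knockdown by similar amounts (log2 fold changes 0.44 ± 0.06 and 0.45 ± 0.05, edgeR adjusted p = 7.01e-07 and 1.20e-07).

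The balance between the transcripts of the P-TEFb genes and HEXIM1 was also taken within each library. Protein amounts, and how much P-TEFb was held inactive, were not measured. A ratio between genes of the same library does not depend on how libraries are scaled; here it was taken on RPKM (CPM per kilobase of the deposited gene length). The ratio of CCNT1 to CDK9 was 0.408 and 0.510 in unheated controls, 0.718 and 0.675 in heated controls, and 0.835 and 0.944 in the knockdown. The ratio of HEXIM1 to CCNT1 was 1.11 and 1.04 before heating, 0.505 and 0.525 after it, and 0.533 and 0.559 in the knockdown. Both ratios separated heated from unheated libraries without overlap. HEXIM1 to CDK9 stood at 0.454 and 0.532 in unheated controls, 0.362 and 0.354 in heated controls, and 0.445 and 0.527 in the knockdown, where it overlapped the unheated range. With 2 libraries against 2, an exact two-sided permutation test cannot go below p = 0.333, so these ratios are given without a test.

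**Figure D2:**
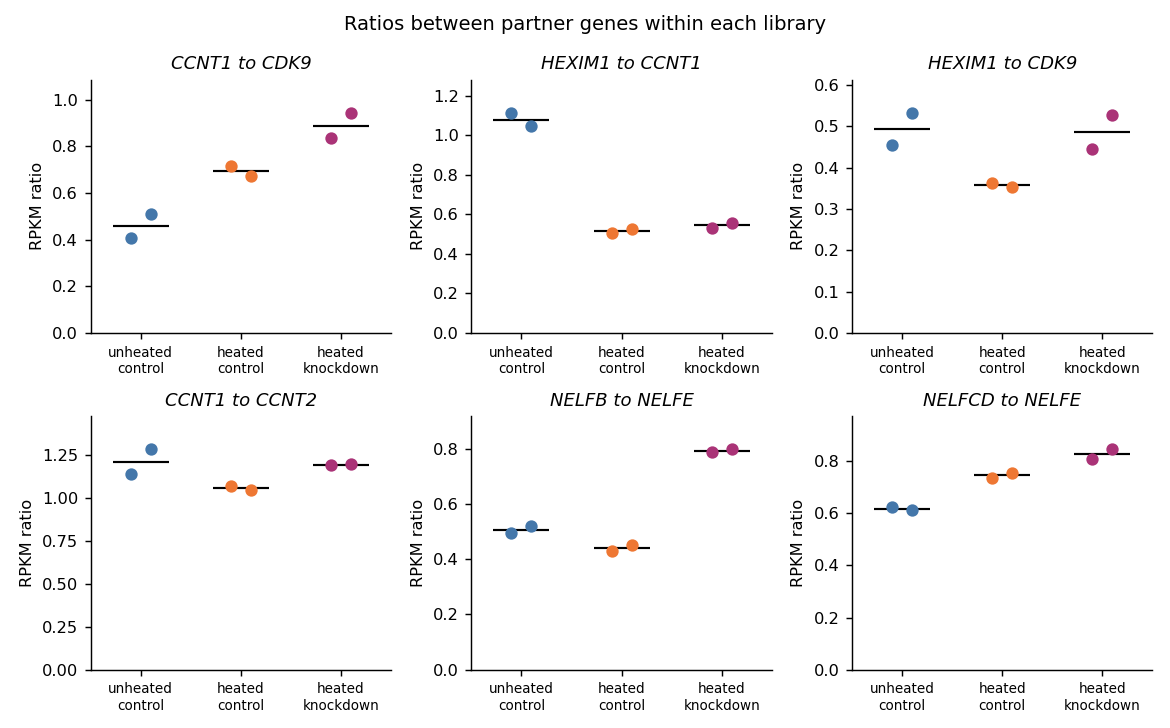
Ratio of RPKM between 2 genes within each library (vertical axes, from 0; points are libraries, bars group means). CCNT1 to CDK9 climbs from a mean of 0.459 in unheated controls to 0.890 in the heated knockdown, HEXIM1 to CCNT1 drops from 1.08 to 0.515 with heat, and NELFB to NELFE is highest in the knockdown at 0.793.

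The 4 NELF subunit genes, whose proteins form a complex that stabilises paused polymerase, did not move as a unit. With heat NELFA and NELFB fell, NELFCD rose and NELFE did not pass the test. In the knockdown, relative to heated controls, NELFA and NELFB rose while NELFCD and NELFE fell.

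NELFB (ENSG00000188986, chromosome 9, 137255327 to 137273542), which encodes a core subunit, was at 47.37 and 50.05 CPM without heating, 40.53 and 40.50 CPM in the heated controls, and 56.91 and 56.92 CPM in the heated knockdown cells. The knockdown libraries were above all 4 control libraries, and the heated controls below the other 4. NELFB fell with heat (log2 fold change -0.27 ± 0.07, edgeR adjusted p = 0.0021). It rose in the knockdown to 140% of the heated control level (0.49 ± 0.07, adjusted p = 9.44e-07), the largest knockdown change among the members. Against unheated controls the knockdown was higher (0.22 ± 0.06, adjusted p = 0.00336), a call that was lost without unheated replicate 1 (0.079, in a range of 0.00361 to 0.079).

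NELFA (ENSG00000185049, chromosome 4, 1982723 to 2008974, minus strand), the subunit that contacts polymerase, was the least counted member, with 220 to 346 counts per library. It was at 21.8 and 18.8 CPM without heating, 16.9 and 15.8 CPM in the heated controls, and 20.1 and 21.7 CPM in the heated knockdown cells. The heated controls were the lowest libraries, and the knockdown lay inside the unheated range. The heat fall passed the test (log2 fold change -0.32 ± 0.11, edgeR adjusted p = 0.0173), as did the rise in the knockdown (0.35 ± 0.11, adjusted p = 0.00682). Both calls depended on the libraries and the test. Without unheated replicate 1 the heat change was -0.21 (adjusted p = 0.245), without heated control replicate 2 it was -0.26 (0.127), and the DESeq2 Wald test gave -0.30 (0.145), in a range of adjusted p from 0.0041 to 0.245. The knockdown call was lost without heated control replicate 2 (adjusted p = 0.0724) and with the DESeq2 Wald test (0.0635), in a range of 0.00399 to 0.0724. Knockdown and unheated controls differed by a log2 fold change of 0.04, with a 95% interval of -0.17 to 0.25, and the sign turned with library size alone (-0.02).

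NELFCD (ENSG00000101158, chromosome 20, 58981256 to 58995113), which encodes the NELF-C and NELF-D forms of a subunit, was at 148 and 146 CPM without heating, 172 and 167 CPM in the heated controls, and 144 and 149 CPM in the heated knockdown cells. Only the heated controls stood apart, above the other 4 libraries. NELFCD rose with heat (log2 fold change 0.21 ± 0.05, edgeR adjusted p = 9.54e-04) and fell by 0.21 ± 0.05 on the log2 scale in the knockdown (adjusted p = 6.30e-04). The heated knockdown and the unheated controls overlapped, with a log2 fold change between them of -0.0041 and a 95% interval of -0.10 to 0.09. The deposited table gives CTSZ, on the opposite strand, an interval that overlaps NELFCD (58985686 to 58995759), so counts between the 2 genes are uncertain; CTSZ had 1680 to 2075 counts per library and NELFCD 2050 to 2351.

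NELFE (ENSG00000204356, chromosome 6, 31952087 to 31958971, minus strand), the RNA-binding subunit, was at 99.97 and 100.5 CPM without heating, 98.3 and 93.2 CPM in the heated controls, and 75.2 and 74.4 CPM in the heated knockdown cells. Both knockdown libraries were below all 4 control libraries. The change with heat did not pass (log2 fold change -0.07, 95% interval -0.17 to 0.04, edgeR adjusted p = 0.316), though with library size alone as the scaling it was called lower (-0.14, adjusted p = 0.0344, in a range of 0.0344 to 0.793). In the knockdown NELFE fell to 78.2% of the heated control level (log2 fold change -0.36 ± 0.05, adjusted p = 5.77e-06). Against unheated controls the log2 fold change was -0.42 ± 0.05 (edgeR adjusted p = 2.42e-07). CFB, whose end lies 3 bases from that of NELFE on the opposite strand, had 0 to 4 counts per library.

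On the per-length scale the NELF transcripts changed their proportions, and those of the proteins were not measured. NELFB to NELFE was 0.494 and 0.519 in unheated controls, 0.430 and 0.453 in heated controls, and 0.789 and 0.797 in the knockdown. NELFCD to NELFE was 0.623 and 0.611, then 0.736 and 0.755, then 0.806 and 0.844 in the same groups. Both ratios were highest in the 2 knockdown libraries, and the 3 groups did not overlap in either.

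SUPT5H (ENSG00000196235, chromosome 19, 39445582 to 39476670), the large subunit of DSIF, had 2147 to 3224 counts per library. It was at 194 and 186 CPM without heating, 165 and 159 CPM in the heated controls, and 218 and 224 CPM in the heated knockdown cells. As for NELFB, the heated controls were lowest and the knockdown highest, with no overlap. SUPT5H fell with heat to 85.3% (log2 fold change -0.23 ± 0.05, edgeR adjusted p = 3.32e-04) and rose in the knockdown to 136% of the heated control level (0.45 ± 0.05, adjusted p = 1.98e-08). Against unheated controls it was higher by a log2 fold change of 0.22 ± 0.05 (edgeR adjusted p = 2.31e-04).

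Across the members, 5 were higher and 2 lower in the knockdown than in heated controls, where 54.5% of all genes were called, 27.4% higher and 27.2% lower. With the DESeq2 Wald test, and also without heated control replicate 2, only NELFB and SUPT5H were called higher and the calls of HEXIM1, CCNT1 and NELFA were lost. The median log2 fold change of the members was 0.18, against -0.0042 over all genes. The knockdown did not overlap the heated controls for 8 members, CCNT2 being the exception, as for 75.9% of all genes. Between the heated knockdown and unheated controls 4 members were higher and 3 lower, with 62.2% of all genes called, 31.1% in each direction; NELFA and NELFCD overlapped, while 80.1% of all genes did not. This comparison shares its control libraries with the heat comparison, and the heated controls enter both of the others, so the log2 fold changes of a gene are not independent between them.

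**Figure D3:**
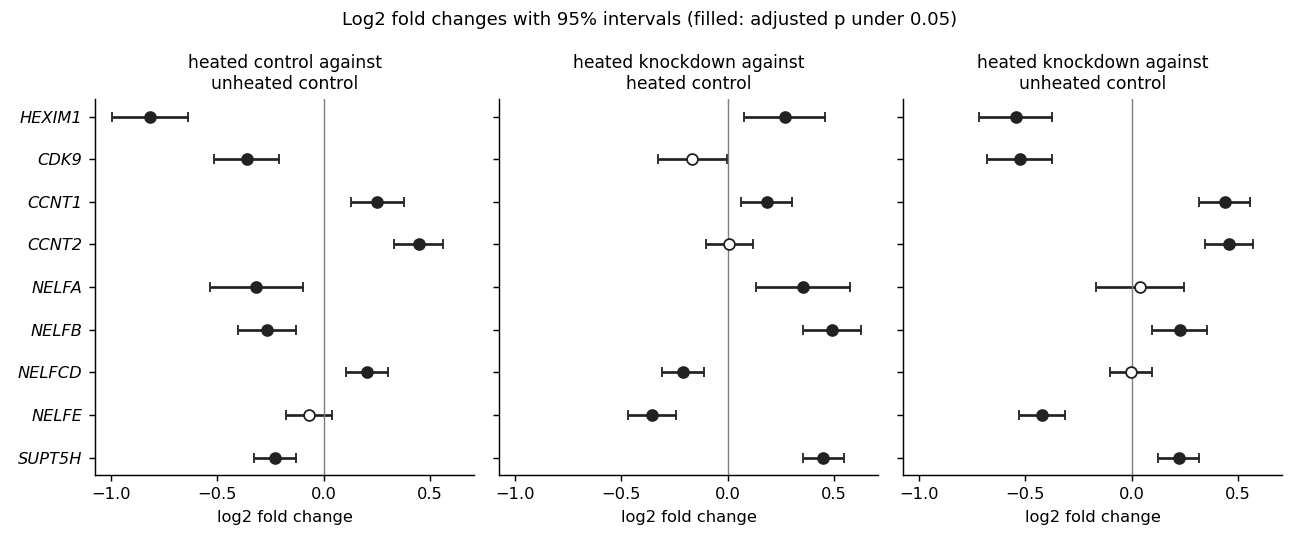
Log2 fold change (horizontal axis) of each gene in the 3 comparisons, with 95% intervals from the edgeR fit; filled points passed an adjusted p of 0.05. HEXIM1 lies farthest from 0 with heat at -0.81. HEXIM1, NELFA, NELFB, NELFCD and SUPT5H each lie on opposite sides of 0 in the heat and knockdown panels, which share the heated controls.

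Levels can be compared between genes only per length. In unheated controls the order on RPKM was NELFE (37.9 ± 0.153, SD, n = 2), NELFCD (23.4 ± 0.246), SUPT5H (22.1 ± 0.647), NELFB (19.2 ± 0.746), CDK9 (18.5 ± 1.77), HEXIM1 (9.09 ± 0.156), CCNT1 (8.43 ± 0.525), CCNT2 (6.97 ± 0.137) and NELFA (4.02 ± 0.419). NELFB and CDK9 overlapped, and no other neighbours in that order did. NELFA was the least abundant of the 4 NELF transcripts in every group, and its unheated level was at the 46.7th percentile of 13466 tested protein-coding genes, against the 93.4th for NELFE. In heated controls HEXIM1 moved from the sixth to the eighth place, below both cyclin genes, at 5.17 ± 0.0116 RPKM. In the knockdown SUPT5H passed NELFCD to the second place, at 25.8 ± 0.549 against 23.3 ± 0.572 RPKM. These levels rest on the deposited gene lengths, from 2540 bases for NELFB to 9081 bases for CCNT2. They would shift for a gene whose transcripts in these cells are shorter. The place of NELFCD above SUPT5H is also uncertain, since counts between NELFCD and the overlapping CTSZ are.

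**Figure D4:**
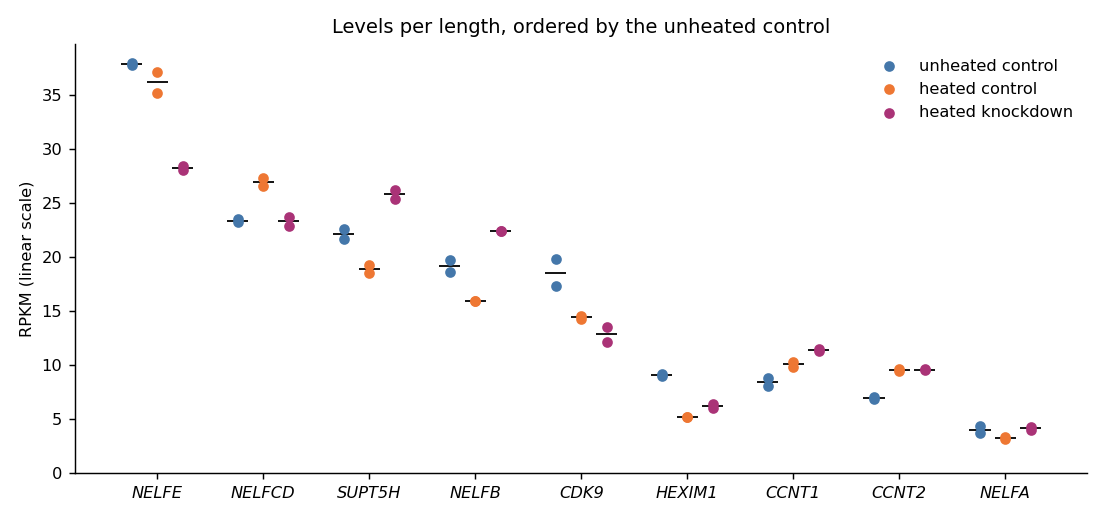
RPKM of the 9 genes in each library (points; bars are group means; linear axis from 0), ordered by the unheated controls. NELFE leads in all 3 groups, from 37.9 in unheated controls to 28.3 in the heated knockdown, and NELFA is last at 3.23 to 4.13.

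Other genes moved through the 6 libraries much as HEXIM1 and NELFB did, the members with the largest heat and the largest knockdown change. Likeness was the Euclidean distance between log2 CPM values, each gene centred on its own mean over the 6 libraries, over 10716 protein-coding genes with a mean CPM of 5 or more. The 3 nearest to HEXIM1 were SRSF2, a splicing factor (distance 0.0754), FBXL5, an iron-regulated ubiquitin ligase subunit (0.107), and CIRBP, a cold-inducible RNA-binding protein (0.113). Their log2 fold changes with heat were -0.78, -0.83 and -0.78. The nearest to NELFB were GNA12, a G protein subunit (0.0727), PRPF6, a splicing factor (0.0738), and PAF1, a subunit of the PAF1 elongation complex (0.0762). Among the members, SUPT5H and NELFB were the most alike (0.119), with 28 of the 10716 genes nearer to NELFB and 40 nearer to SUPT5H, whereas the member nearest to HEXIM1 was CDK9 at 0.567, with 1162 of those genes nearer. These are distances over 6 libraries and carry no test.

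A wider set of 65 genes of transcription elongation, in 8 lists, was set beside the members. Of the 63 that passed the filter, 13 were higher and 18 lower with heat, and 21 higher and 23 lower in the knockdown, with median log2 fold changes of -0.024 and -0.016. As shares, 20.6% were higher and 28.6% lower with heat, against the 20.6% and 23.3% of all genes given above, and 33.3% and 36.5% in the knockdown, against 27.4% and 27.2%. The same shares of all genes are the background for the counts of each list below, and each list is small.

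Among the partners of HEXIM1 in the 7SK particle, the 7SK RNA gene itself, RN7SK, had no count in any library. How reads with several matches were handled is not given in the sources used here, so the missing counts do not show that the RNA was absent. Of the 3 partners tested, 2 were lower with heat and 1 was higher in the knockdown. LARP7, which stabilises 7SK, was the 1 that rose in the knockdown (log2 fold change 0.21 ± 0.05, edgeR adjusted p = 0.00222). MEPCE, which caps 7SK, was called lower with heat (-0.51 ± 0.19, adjusted p = 0.0301). The MEPCE call was lost without unheated replicate 1 (adjusted p = 0.0862), unheated replicate 2 (0.111) or heated control replicate 2 (-0.28, 0.343), and with the DESeq2 Wald test (0.196), and without heated control replicate 1 its log2 fold change was -0.77 (adjusted p = 0.00928, the lowest of the range). HEXIM2, the paralogue of HEXIM1, was at 2.87 CPM in unheated and 4.02 CPM in heated controls (log2 fold change 0.49, adjusted p = 0.0836).

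In the super elongation complex, which carries P-TEFb to genes, 3 of 8 tested genes rose with heat and 5 did not pass. EAF1, a partner of the ELL elongation factors, rose most (log2 fold change 0.85 ± 0.07, edgeR adjusted p = 2.45e-10) and was the largest fall of this list in the knockdown (-0.57 ± 0.07, adjusted p = 1.26e-07). The scaffold gene AFF4 led the 3 rises in the knockdown (0.54 ± 0.04, adjusted p = 3.99e-10), against 2 falls. In the PAF1 complex, which travels with elongating polymerase, 4 of 6 genes fell with heat and 2 did not pass; the falls were led by RTF1 (-1.16 ± 0.07, adjusted p = 1.12e-12). In the knockdown 3 rose and 1 fell, with CTR9 at 0.94 ± 0.05 (adjusted p = 1.36e-13) and CDC73 at -0.30 ± 0.08 (0.00278).

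Of 7 other elongation factors, with the DSIF partner SUPT4H1 among them, 1 rose and 2 fell with heat, and 4 rose and 2 fell in the knockdown. IWS1, which works with SUPT6H, fell with heat (log2 fold change -0.69 ± 0.06, edgeR adjusted p = 4.11e-10). SSRP1, a subunit of the histone chaperone FACT, rose with heat (0.22 ± 0.04, adjusted p = 1.54e-04) and fell by 1.10 ± 0.04 on the log2 scale in the knockdown (8.20e-16). TCEA1, which rescues backtracked polymerase, rose in the knockdown (0.83 ± 0.06, adjusted p = 4.44e-11). SUPT4H1 itself had 22 to 33 counts per library, and its change with heat did not pass (adjusted p = 0.184). On the per-length scale SUPT4H1 had a mean of 0.719 RPKM in unheated controls, against 22.1 RPKM for SUPT5H. Genes that overlap SUPT4H1 were not looked for, and how reads with several matches were handled is not given. Its low count therefore does not show that its transcript was scarce.

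Of the 6 genes of the CDK7, CDK12 and CDK13 kinases and their partners, which also phosphorylate the polymerase tail, 1 rose and 1 fell with heat, and 4 fell in the knockdown while 2 did not pass. MNAT1, the assembly factor of the CDK7 kinase, fell most in the knockdown (log2 fold change -1.08 ± 0.09, edgeR adjusted p = 2.18e-10). With heat CDK13 rose (0.27 ± 0.06, adjusted p = 3.56e-04) and CCNH, the cyclin of CDK7, was called lower (-0.33 ± 0.10, adjusted p = 0.00899). The CCNH call was lost without unheated replicate 1 (adjusted p = 0.0545), without heated control replicate 1 (0.0643) and with the DESeq2 Wald test (0.114), in a range of 0.00186 to 0.114. Of 6 polymerase phosphatase genes 4 fell and 1 rose with heat, and again 4 fell and 1 rose in the knockdown. PPP1R10, a targeting subunit of protein phosphatase 1, fell most with heat (-1.32 ± 0.07, adjusted p = 4.75e-14), while RPAP2 rose (0.28 ± 0.06, 7.32e-04). CTDSP1 fell most in the knockdown (-2.07 ± 0.11, adjusted p = 1.12e-13). The rise of SSU72 in the knockdown (0.14 ± 0.06, adjusted p = 0.049) was lost whichever of the 6 libraries was left out (adjusted p from 0.0578 to 0.222, in a range of 0.0318 to 0.227 over all alternatives).

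Of 14 Integrator genes, whose products cut nascent RNA and end paused transcription, 4 rose and 4 fell with heat, and 7 rose and 3 fell in the knockdown. INTS5 fell with heat (log2 fold change -0.82 ± 0.13, edgeR adjusted p = 1.25e-05) and rose in the knockdown (0.68 ± 0.13, adjusted p = 1.17e-04), while INTS3 led the rises with heat (0.34 ± 0.06, 4.48e-05) and INTS8 the falls in the knockdown (-0.94 ± 0.08, 9.17e-10). Of 13 RNA polymerase II subunit genes 3 rose and 1 fell with heat. The 1 that fell was POLR2A, the largest subunit (-0.59 ± 0.05, adjusted p = 1.02e-09), and POLR2M led the rises (0.61 ± 0.08, 5.75e-07). In the knockdown 2 rose, led by POLR2D (0.73 ± 0.07, adjusted p = 1.80e-09), and 7 fell, led by POLR2I (-0.74 ± 0.08, 2.06e-08).

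**Figure D5:**
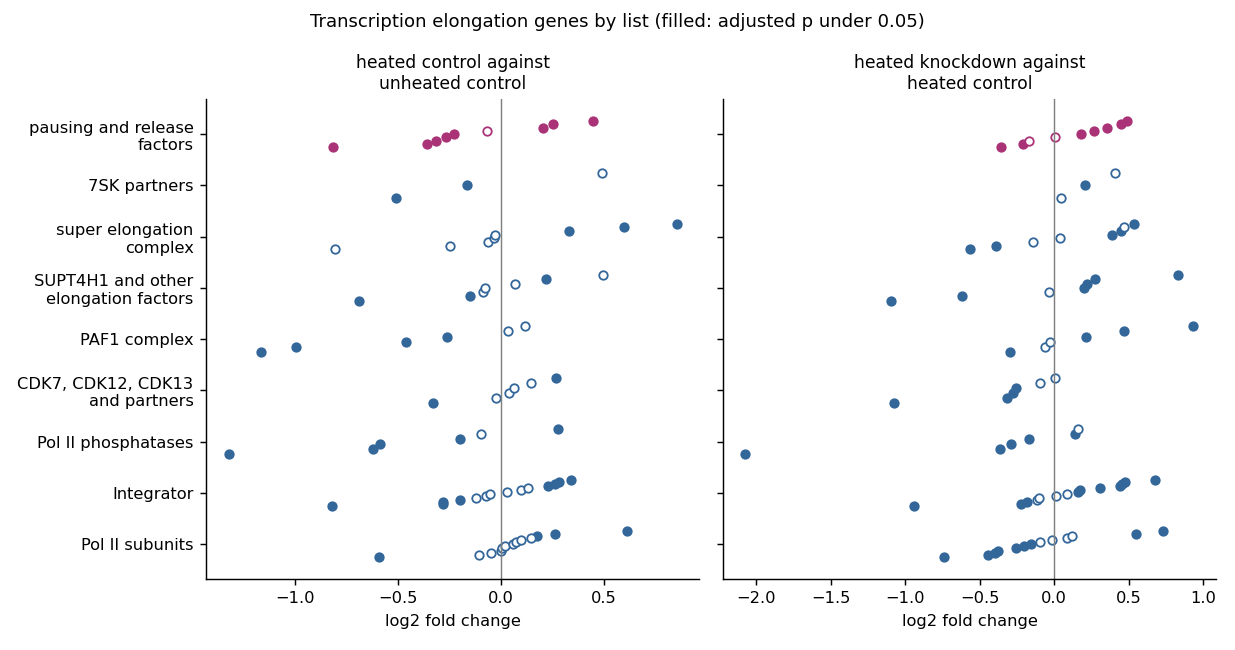
Log2 fold change (horizontal axis) of each tested gene of the members and the 8 wider lists (rows; 1 point per gene, spread vertically for legibility), with heat and with the knockdown; filled points passed an adjusted p of 0.05. The members span -0.81 to 0.45 with heat and -0.36 to 0.49 in the knockdown, inside the range of the wider set, which runs from -1.32 to 0.85 and from -2.07 to 0.94.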

How the data were processed

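RNA-seq counts of 6 libraries were analysed; the 4 methylated RNA immunoprecipitation samples were not analysed here. The authors deposited raw counts of reads for each gene, and, as another column, a gene length in bases, per the file headers. The submitters' processing notes list the aligner HISAT2 2.2.1 and the counter featureCounts 2.0.2 on GRCh38, beside other tools, without roles or order. Which annotation and strandedness were set, and how reads with several matches were handled, is not given in the sources used here.

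Tests on these counts used edgeR 4.0.16 in R 4.3.3 (quasi-likelihood F test, robust, TMM scaling, filterByExpr with a minimum count of 10), all 6 libraries in 1 fit with 3 residual degrees of freedom; 17290 genes were tested. SE is the log2 fold change divided by the square root of F. Symbols matched 62666 identifiers by Ensembl ID, and the other 521 held 0.0602% to 0.0698% of counts. Promoters and positions are RefSeq, GRCh38.p14. Replicates differed by more than sampling noise (chi-square per gene 1.52 to 3.41). The script was tested on simulated data. Members and lists were chosen with earlier results of these data known, and a few listed genes are not reported here. Named genes were all members and, per list and comparison, the largest called rise and fall at 5 CPM or more, beside HEXIM2, RN7SK and SUPT4H1, which were named for their direct partnership with members after their values were seen. Alternatives were the DESeq2 1.42.0 Wald test, limma 3.58.1 voom, library size alone, no filter, no robust estimation, only the groups compared, a replicate block, and leaving out each library.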

Additional observations from a re-analysis of the deposited data

How the results depend on the processing

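Over 13 alternatives, 329 of 351 recomputed values for the 27 results of single members kept their direction and call, 13 lost the call, 2 gained it and 7 changed sign, all 7 among differences that were not called. With 1 library left out, the log2 fold change of CCNT2 in the knockdown ranged from -0.014 to 0.017, that of NELFA in the heated knockdown against unheated controls from -0.075 to 0.14, and that of NELFCD there from -0.029 to 0.014. The other changes of sign were CCNT2 in the knockdown with no filter (-0.0026), NELFA in the heated knockdown against unheated controls with library size alone (-0.017) and NELFCD there with DESeq2 (0.0052). The members called higher in the knockdown went from 5 to 2 with DESeq2, and ranged from 2 to 5 when a library was left out. Genes called lower with heat over the whole table went from 4033 to 2514 with DESeq2. Of 351 values for the 27 named results of the wider lists, 333 kept their call and 18 lost it. The cause was not tested. A replicate block, with numbers that the labels do not tie to a shared source (correlations of the replicate difference between groups from -0.06 to 0.05 over 11574 genes), gave 3 members higher and 5 lower with heat, 5 higher and 2 lower in the knockdown, and changed no call of a member. With 2 libraries a group, a difference as small as that of CDK9 in the knockdown passed or missed the threshold with a change of library. CDK9 had 525 to 942 counts per library, and the lowest count of any member was 220, for NELFA.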
